A study of Mus musculus with 16 samples.

Results

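The genes followed here encode the proteins of the mitochondrial ribosome. Members were the protein-coding genes whose symbol in the GENCODE M21 annotation is Mrpl or Mrps followed by a number, with pseudogenes left out. The rule found 78 genes among the 55401 in the tables, 49 named for the large subunit (Mrpl) and 29 for the small subunit (Mrps). They lie on 17 chromosomes. RNA came from cultures of spleen-derived mouse OT-I CD8+ T cells, whose transgenic receptor recognises an ovalbumin peptide, in 16 libraries that form 4 groups of 4. WT TE (libraries 1 to 4) and TPdh-/- TE (libraries 5 to 8) were driven towards effector cells with IL-2 after activation with the peptide. WT TM (libraries 9 to 12) and TPdh-/- TM (libraries 13 to 16) were driven towards memory cells with IL-15. In TPdh-/- mice the CD4-cre recombinase deletes floxed Pdha1, which encodes a catalytic subunit of pyruvate dehydrogenase, in T cells. WT mice are the controls, and the labels do not say whether they carried the cre or the floxed allele. The labels give no animal for a library either. The paper on these data states 5 mice per condition for its RNA sequencing, a number that the 4 libraries of a group do not match. Each p value therefore measures the spread between these libraries, which may be technical.

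Mitochondria keep their own ribosome, which translates only the messages of the mitochondrial genome, and all of those messages encode subunits of the respiratory chain and ATP synthase. The ribosomal RNAs come from the mitochondrial genome, whereas every ribosomal protein is encoded in the nucleus and imported. The small subunit reads the message and the large subunit forms the peptide bond. Part of the proteins descend from the bacterial ribosome and the rest were added in the mitochondrial lineage. The symbol does not always give the place: Mrps30 and Mrps18a were found in the large subunit in structures of mammalian mitoribosomes, and Mrps36 is a component of the 2-oxoglutarate dehydrogenase complex.

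Counts assigned to genes ran from 53007257 to 73507566 a library, of which the members took 0.207% to 0.258%. The CD8 T cell markers Cd3d, Cd3e, Cd3g, Cd8a, Cd8b1 and Trac summed to 2252 to 4066 TPM (a level scaled for transcript length and library total), and Cd4 reached at most 0.50 TPM. The Pdha1 gene averaged 161 CPM (counts scaled to the library total) in WT TE, 153 in TPdh-/- TE, 178 in WT TM and 153 in TPdh-/- TM, where the difference in TM passed the test (-0.22, adjusted p = 0.00556 in edgeR). Counts per gene also take in the exons outside the deleted part, so that these values do not check the deletion. The paper reports no Pdha mRNA (from a qPCR it describes on genomic DNA) and no PDHA protein by immunoblot in splenic TPdh-/- T cells. Why the gene-level RNA here stays near the WT level was not tested. WT TM library 12 and TPdh-/- TE library 5 deviated most from the other libraries of their groups, with an SD of the log2 deviation over all tested genes of 0.42 and 0.404. Libraries 8, 13 and 16 followed closely with 0.399, 0.393 and 0.392, and the lowest library had 0.30. Over the members alone the median deviation was largest in library 13 (-0.124, 69 members below), next to -0.12 in library 12, 0.12 in library 11 and 0.118 in library 15. Counts of calls are also given without libraries 5 and 12.

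All 78 members passed the filter on low counts, and 46 have a bacterial counterpart (30 in the large subunit, 16 in the small) while 32 occur only in mitochondria. Mean TPM over the 16 libraries ran from 5.13 for Mrpl53 to 376 for Mrpl33, and the median was 28.1 in the large and 29.4 in the small subunit. The 5 highest genes carried 30.2% of the summed TPM. After Mrpl33, counterpart of bacterial L33, the large subunit was led by Mrpl30 at 179 TPM and Mrpl24 at 170 TPM. In the small subunit Mrps21 averaged 297 TPM, Mrps23 averaged 214 TPM and Mrps18c averaged 145 TPM. At the other end stood Mrpl53, Mrpl57 (8.85 TPM) and Mrpl38 (11.0 TPM) in the large subunit. Lowest in the small subunit were Mrps28 (8.31 TPM), Mrps30 (11.9 TPM) and Mrps6 (14.5 TPM). Genes whose products sit in the ribosome together thus differed up to 73.3-fold in RNA level per length. Within a group, the coefficient of variation of a member's CPM had a median of 7.03% over members, against 9.39% over all 15277 tested genes.

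The summed TPM of each subunit was lower in TM than in TE in both genotypes. In the large subunit the libraries of WT TE held 2569 to 2685 TPM and those of TPdh-/- TE 2605 to 2892 TPM, while WT TM held 2234 to 2374 and TPdh-/- TM 2194 to 2361. Every TM library lay below every TE library. Small subunit sums showed the same order, with 1630 to 1714 TPM in WT TE, 1663 to 1796 in TPdh-/- TE, 1483 to 1542 in WT TM and 1429 to 1575 in TPdh-/- TM. The mean of WT TM stood at 0.875 of that of WT TE in the large and 0.899 in the small subunit, and in TPdh-/- cells these ratios were 0.822 and 0.866. Between genotypes the ranges overlapped in both cultures and both subunits. The ratio of the large to the small subunit sum lay between 1.44 and 1.63 in all 16 libraries. Moving Mrps30 and Mrps18a to the large subunit and leaving out Mrps36 gave ratios of TM to TE in WT of 0.877 and 0.900.

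**Figure D1:**
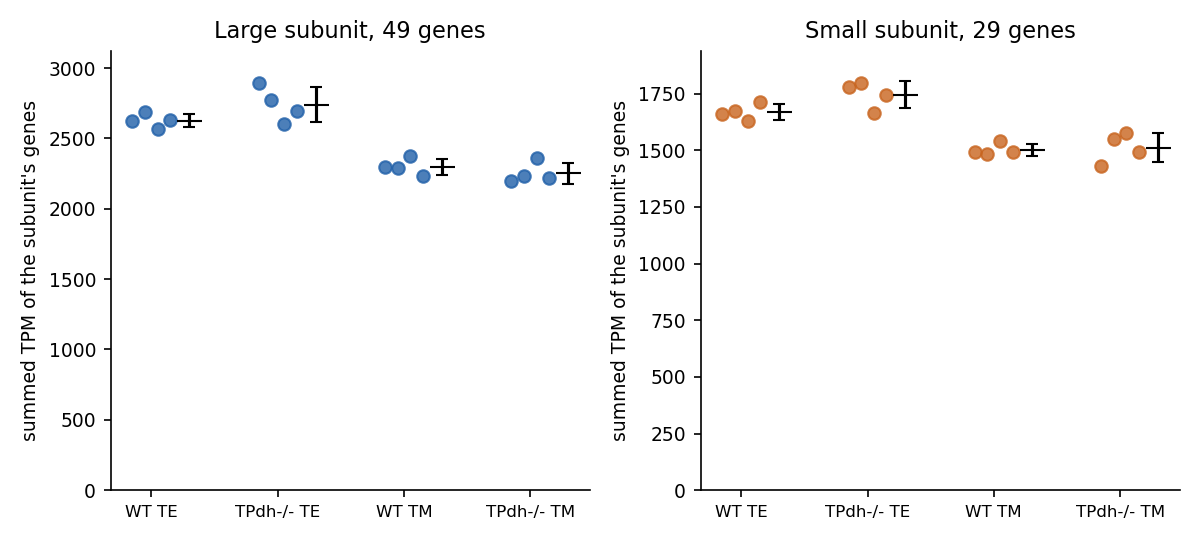
Summed TPM of the large subunit genes (left) and small subunit genes (right) on the y axis in each library, by group on the x axis. Points are libraries 1 to 16 from left to right, and the bar beside each group is the mean with its SD (n = 4). All 8 TM libraries lie below all 8 TE libraries in both panels, at most 2374 against at least 2569 TPM in the large subunit.

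Most members were lower in TM together, as given by gene further on, so the sequence around their start sites is shown. RefSeq windows of 250 bases before to 50 bases after the start (GRCm38.p6) were matched by symbol for 69 members. They were searched on both strands for 8-letter matches to NRF1 (GCGCATGC), to ETS factors such as GABPA (CCGGAAGT) and to YY1 (AAGATGGC), factors known for nuclear genes of mitochondria. The NRF1 letters were present in 8 of 69 members (11.6%), against 3.05% of 27025 RefSeq genes and 5.88% of the 10410 tested genes with a window. ETS letters were present in 12 members (17.4%, against 4.31% and 9.09%) and YY1 letters also in 12 (17.4%, against 3.19% and 5.33%). At least 1 of the 3 occurred in 29 members (42.0%) and in 18.8% of tested genes. Among members lower in TM in both genotypes 20 of 44 with a window (45.5%) held a match, among those higher in both 1 of 5 did, and among the rest 8 of 20 (40.0%) did. A match is a run of letters and not a site of binding. Most YY1 matches began after the start site, at base 12 to 37 counted from it. Whether they lie in translated sequence was not examined. The windows below were chosen after their matches were seen, to show an NRF1 palindrome (Mrpl32), NRF1 and ETS letters side by side (Mrpl33), ETS with YY1 letters (Mrps27), matches on either side of the start of a gene that differed by genotype (Mrps18b) and a window with no match, from the small subunit gene with the largest rise in WT TM (Mrps2). Capitals mark the matches, and base 251 is the RefSeq start site. For Mrps18b the GENCODE start, 35916389 on the minus strand, lies beyond the window, so that both matches precede that start.
Mrpl32 (chr13:14612988-14613287, minus strand): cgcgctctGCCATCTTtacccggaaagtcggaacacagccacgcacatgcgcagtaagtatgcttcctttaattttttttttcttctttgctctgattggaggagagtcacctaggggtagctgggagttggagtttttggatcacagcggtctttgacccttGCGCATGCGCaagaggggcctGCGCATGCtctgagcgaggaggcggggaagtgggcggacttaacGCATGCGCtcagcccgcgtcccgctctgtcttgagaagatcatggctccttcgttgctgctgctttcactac
Mrpl33 (chr5:31613701-31614000, plus strand): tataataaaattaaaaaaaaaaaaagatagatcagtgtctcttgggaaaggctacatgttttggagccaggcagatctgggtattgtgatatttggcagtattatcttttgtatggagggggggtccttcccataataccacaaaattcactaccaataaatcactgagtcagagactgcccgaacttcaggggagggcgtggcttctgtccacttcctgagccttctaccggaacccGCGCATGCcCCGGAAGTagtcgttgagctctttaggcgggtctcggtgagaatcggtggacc
Mrps27 (chr13:99344536-99344835, plus strand): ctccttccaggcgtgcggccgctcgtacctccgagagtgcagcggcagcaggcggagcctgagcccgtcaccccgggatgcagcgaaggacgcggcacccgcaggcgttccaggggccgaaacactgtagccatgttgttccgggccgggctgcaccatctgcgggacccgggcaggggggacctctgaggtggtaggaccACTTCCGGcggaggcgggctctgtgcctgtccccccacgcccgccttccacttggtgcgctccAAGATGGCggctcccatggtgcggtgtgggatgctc
Mrps18b (chr17:35916391-35916690, minus strand): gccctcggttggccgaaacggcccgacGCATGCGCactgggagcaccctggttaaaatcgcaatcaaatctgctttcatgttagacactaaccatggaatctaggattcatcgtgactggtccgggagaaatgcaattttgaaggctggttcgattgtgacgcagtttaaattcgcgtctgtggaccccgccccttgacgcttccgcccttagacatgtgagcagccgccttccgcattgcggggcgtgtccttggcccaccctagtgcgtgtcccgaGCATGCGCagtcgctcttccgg
Mrps2 (chr2:28467816-28468115, plus strand): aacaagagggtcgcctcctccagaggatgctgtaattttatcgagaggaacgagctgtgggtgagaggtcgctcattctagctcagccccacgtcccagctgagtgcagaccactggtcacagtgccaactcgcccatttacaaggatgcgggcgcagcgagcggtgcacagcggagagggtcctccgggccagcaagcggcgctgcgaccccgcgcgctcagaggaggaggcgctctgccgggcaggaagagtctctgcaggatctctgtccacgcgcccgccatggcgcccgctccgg
In Mrpl32 the NRF1 letters start 87, 85, 66 and 22 bases before the start site. Mrpl33, the member with the highest level, has them 12 bases before it and the ETS letters 3 bases before it.

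Memory against effector culture in WT cells asked which members differ between IL-15 and IL-2. Of the 78 members 51 were lower in WT TM than in WT TE and 9 were higher in edgeR's quasi-likelihood test at an adjusted p under 0.05 (Benjamini-Hochberg over all 15277 genes). Over all tested genes 34.3% were called lower and 34.3% higher, so that lower calls made up 65.4% and higher calls 11.5% of the members. In the large subunit 33 of 49 fell and 4 rose, and in the small subunit 18 of 29 fell and 5 rose. Median log2 differences were -0.29 and -0.31, against 0.01 over all tested genes. Members with a bacterial counterpart (31 of 46 lower, median -0.32) and those found only in mitochondria (20 of 32 lower, median -0.26) had similar counts. At least 1 library of WT TE overlapped WT TM for 23 members, and for the 55 others the groups were fully apart. All 55 passed the test. Over all tested genes 63.9% had groups fully apart.

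In TPdh-/- cells the same comparison gave 50 members lower and 6 higher in TM. It contrasts the other 8 libraries but comes from the same fit to all 16, so the 2 comparisons share their estimate of spread. The fit of the 2 TPdh-/- groups alone gave 50 lower and 7 higher. Over all tested genes 67.7% were called, 34.7% lower and 33% higher. In the large subunit 32 fell and 2 rose (median -0.27), and in the small subunit 18 fell and 4 rose (median -0.29), against a median of 0.00 over all tested genes. The calls largely named the same genes: 47 members were lower in both genotypes, which is 92.2% of those lower in WT and 94% of those lower in TPdh-/-. For all tested genes the shared part was 80.8% and 79.9%. Mrpl24, Mrpl37, Mrps2, Mrps5, Mrps17 and Mrps35 were higher in both, and no member was called in opposite directions. Across the 78 members the differences in WT and TPdh-/- cells had a Pearson r of 0.92 (0.83 over all tested genes), given as a description since genes are not independent replicates. Without libraries 5 and 12, 51 members were lower and 16 higher in WT, and 51 lower and 11 higher in TPdh-/-.

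**Figure D2:**
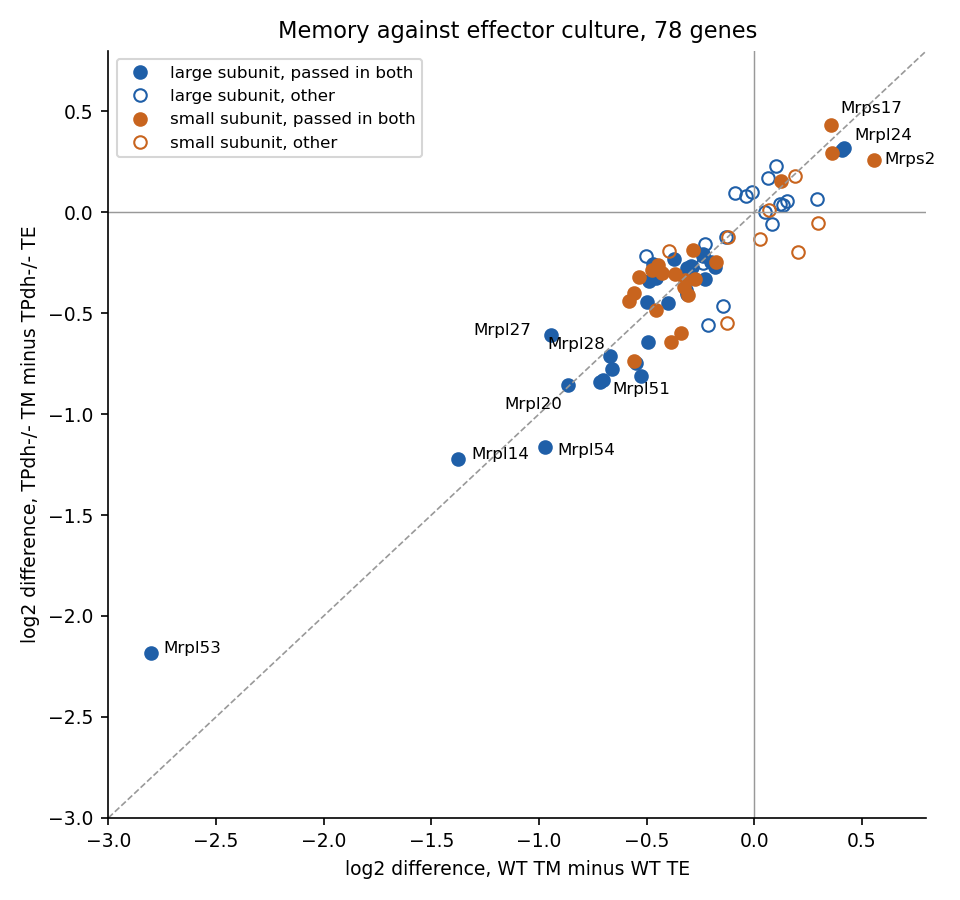
Log2 difference of TM minus TE in WT cells (x axis) and in TPdh-/- cells (y axis), 1 point for each of the 78 genes, filled where the difference passed the test in both genotypes. The dashed line marks equal differences. Most points lie below 0 on both axes, and Mrpl53 (-2.80 in WT, -2.18 in TPdh-/-) and Mrpl14 (-1.37 and -1.22) lie farthest from 0.

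Among large subunit genes the largest fall was that of Mrpl53 (ENSMUSG00000030037, GRCm38 chromosome 6, 83109040 to 83109939), a subunit found only in mitochondria. Its WT TE libraries held 3.34, 2.84, 3.82 and 2.32 CPM and its WT TM libraries 0.702, 0.222, 0.719 and 0.100 CPM. TPdh-/- TE libraries held 3.39, 2.59, 3.59 and 2.65 CPM and TPdh-/- TM libraries 0.327, 0.800, 1.22 and 0.302 CPM. No TM library reached the lowest TE library, and all are low. The log2 difference was -2.80 ± 0.63 (SE, n = 4 against 4, adjusted p = 2.47e-05) in WT and -2.18 ± 0.48 (adjusted p = 0.000197) in TPdh-/-, or 0.143 and 0.220 of the TE level. Its exons overlap Ccdc142os and Gm42688, and Gm42688 moved the other way (1.10 in WT, 0.84 in TPdh-/-). The libraries carry no strand, and the division of reads between these genes was not tested.

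Mrpl14, counterpart of bacterial L14 at the contact of the subunits, lies on chromosome 17 (45686322 to 45698495). It held 10.7, 12.96, 14.9 and 11.6 CPM in WT TE and 5.04, 3.85, 5.48 and 4.92 CPM in WT TM. The log2 difference was -1.37 ± 0.15 (adjusted p = 7.71e-08), and in TPdh-/- cells it was -1.22 ± 0.14 (adjusted p = 3.59e-07). All TM libraries of both genotypes lay at 5.48 CPM or below and all TE libraries at 8.996 or above. The neighbour Tmem63b, with which Mrpl14 shares exon positions, rose by 0.93 in WT TM and differed by 0.12 in TPdh-/- (adjusted p = 0.362).

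Mrpl54 (chromosome 10, 81264713 to 81266934), which shares no exon position with another gene, had the smallest adjusted p of the members in both genotypes. WT TE libraries held 13.98, 12.8, 13.8 and 12.5 CPM, TPdh-/- TE libraries 12.4, 12.6, 13.02 and 13.6 CPM. In TM the values were 6.38, 6.29, 6.86 and 7.51 CPM for WT and 5.50, 5.67, 6.14 and 5.75 CPM for TPdh-/-. The gene stood at 0.510 of the TE level in WT (log2 -0.97 ± 0.07, adjusted p = 3.13e-09) and 0.447 in TPdh-/- (-1.16 ± 0.05, adjusted p = 4.86e-10). Mrpl27, whose bacterial counterpart reaches towards the peptidyl transferase centre, fell by 0.94 in WT and by 0.61 in TPdh-/-. Mrpl20, known in bacteria for a role in early assembly, fell by 0.86 in both. In TPdh-/- cells Mrpl51 followed with -0.84 ± 0.15 (adjusted p = 5.50e-06), and in WT it fell by 0.72. The partner Eme1 of Mrpl27, a nuclease subunit gene, fell as well (-1.21 in WT).

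The stalk that recruits translation factors to the large subunit is made of Mrpl12 on a base of Mrpl10 and Mrpl11. Mrpl12 (chromosome 11, 120484613 to 120489065) held 29.1, 33.1, 30.8 and 28.6 CPM in WT TE and 21.4, 19.2, 22.5 and 20.2 CPM in WT TM, with no overlap. Its difference was -0.55 ± 0.07 in WT (adjusted p = 2.89e-05) and -0.75 ± 0.11 in TPdh-/- (adjusted p = 1.01e-06). Mrpl10 fell by 0.23 in WT and 0.33 in TPdh-/-, and Mrpl11 fell by 0.31 and 0.40. On the TPM scale the WT differences of Mrpl10 (-0.048, adjusted p = 0.485 in limma) and Mrpl11 (-0.059, adjusted p = 0.483) no longer passed, while Mrpl12 passed under every alternative in both genotypes. The gene for the peptidyl-tRNA hydrolase of the large subunit, Mrpl58, differed by -0.09 in WT (adjusted p = 0.257) and 0.09 in TPdh-/- (adjusted p = 0.245).

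The largest falls were smaller in the small subunit. Mrps14 fell by 0.58 in WT and Mrps12, part of the decoding centre and the counterpart of the protein that is mutated in streptomycin-resistant bacteria, fell by 0.56. The libraries of Mrps12 held 4.03, 3.605, 4.03 and 3.85 CPM in WT TE and 2.40, 2.68, 2.79 and 2.65 CPM in WT TM, again fully apart. On the TPM scale its differences were -0.21 in WT and -0.13 in TPdh-/- (adjusted p = 0.0773 and 0.257 in limma). Mrps22, found only in mitochondria, fell by 0.56 in WT and 0.74 in TPdh-/-. Mrps33 (-0.53) and Mrps18c (-0.48) completed the largest falls in WT, and in TPdh-/- these were Mrps22, Mrps7 (-0.64), Mrps27 (-0.60), Mrps28 (-0.55) and Mrps24 (-0.49). Mrps18c, Mrps14 and Mrps33 were lowest of all WT TM libraries in library 12, with 25.4, 27.5 and 36.1 CPM.

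The 3 genes of the Mrps18 family differed in behaviour. Mrps18c, the counterpart of bacterial S18, fell in both genotypes (-0.48 and -0.29). Mrps18a fell by 0.18 in WT (adjusted p = 0.0176) and 0.25 in TPdh-/- (adjusted p = 0.00215), differences that came to -0.03 and -0.14 once the length trend was removed (adjusted p = 0.721 and 0.0537 in limma). Mrps18b differed by 0.21 in WT (adjusted p = 0.0515) and -0.20 in TPdh-/- (adjusted p = 0.0601). Mrps30, which like Mrps18a sits in the large subunit, differed by 0.07 and 0.01 (adjusted p = 0.315 and 0.900). Mrps36, of the 2-oxoglutarate dehydrogenase complex, fell by 0.43 in WT and 0.30 in TPdh-/-.

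Against this majority stood the members that were higher in TM. Mrps2 (chromosome 2, 28468066 to 28471178), counterpart of bacterial S2, held 20.7, 21.0, 20.4 and 20.9 CPM in WT TE and 30.5, 29.9, 28.6 and 33.0 CPM in WT TM. It rose 1.47-fold in WT (log2 0.56 ± 0.04, adjusted p = 5.91e-07) and 1.20-fold in TPdh-/- (0.26 ± 0.07, adjusted p = 0.0016). Mrpl24, whose bacterial counterpart sits near the exit of the nascent chain, had 85.5 to 94.6 CPM in WT TE and 112 to 127 CPM in WT TM. It rose by 0.41 in WT and 0.32 in TPdh-/-, as did Mrpl37 (0.41 and 0.31) and Mrps17 (0.36 and 0.43). Mrpl24 shares exon positions with Rrnad1, which rose by 0.39 in WT. Mrps10 (0.30) and Mrpl19 (0.29) rose in WT, and their differences in TPdh-/- cells were -0.05 and 0.06 (adjusted p = 0.642 and 0.395). Mrps5 rose by 0.29 and Mrps35 by 0.16 in TPdh-/-. For Mrps17 the mean transcript length that RSEM weighted by isoform went from 962 bases in WT TE to 1173 in WT TM, and on the TPM scale, which divides by that length, its difference was 0.14 in WT and -0.09 in TPdh-/- cells (adjusted p = 0.0772 and 0.263 in limma).

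**Figure D3:**
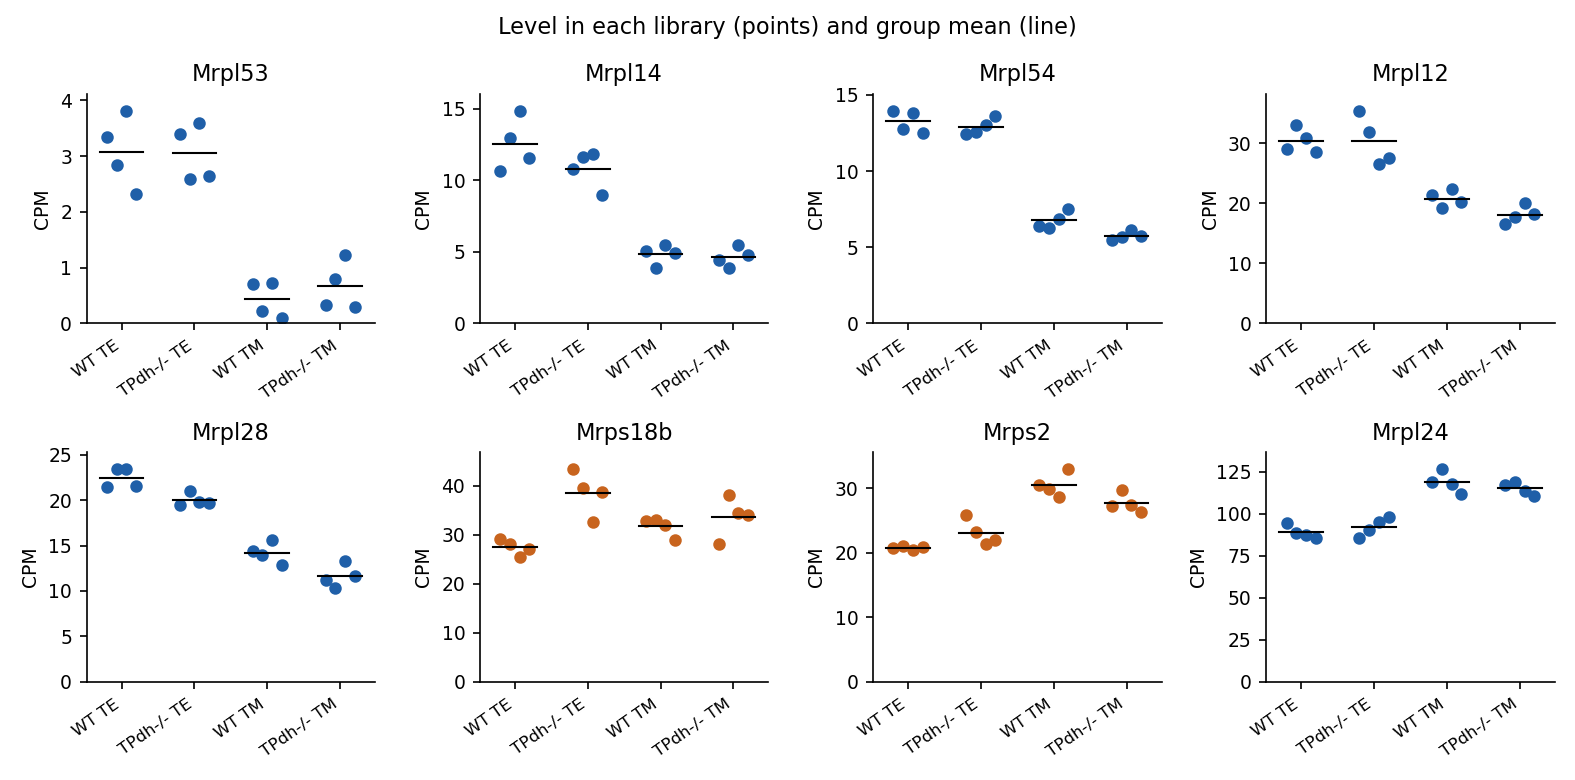
CPM of 8 genes (y axis, each panel with its own scale from 0) by group (x axis). Points are libraries and lines are group means (n = 4). Mrpl53, Mrpl14, Mrpl54, Mrpl12 and Mrpl28 were lower in TM than in TE, Mrps2 and Mrpl24 were higher, and Mrps18b was higher in TPdh-/- TE (32.7 to 43.4 CPM) than in WT TE (25.5 to 29.2 CPM).

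Member transcripts are short, with a median of 1066 bases against 2245 over all tested genes, and the difference between cultures varied with length over all genes. Among tested genes up to 600 bases the median in WT was -0.075 and 26.8% were called lower, and all 5 members in this class were lower. Over all tested genes of 600 to 900 bases the median difference in WT was -0.21 and 42.2% were called lower, while over genes longer than 4000 bases the median was 0.20 and 24.8% were called lower. Members of 600 to 900 bases had a median of -0.44 with 16 of 22 lower. Between 900 and 1200 bases the medians of members (-0.18, 9 of 21 lower) and of all genes (-0.19, 45.4% lower) lay close together. Between 1200 and 1800 bases the members had -0.26 with 16 of 20 lower, against -0.09 and 40.6%. After the trend of log2 CPM on length was removed in each library, in an alternative added after the data were seen, 43 members were lower and 16 higher in WT (medians -0.19 large, -0.17 small) and 46 lower and 11 higher in TPdh-/- (both -0.21). On the TPM scale 31 members were lower and 13 higher in WT by limma, where the median of all genes stood at 0.12. The members' medians on that scale were -0.12 and -0.11. In TPdh-/- cells the TPM scale gave 53 lower and 5 higher.

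**Figure D4:**
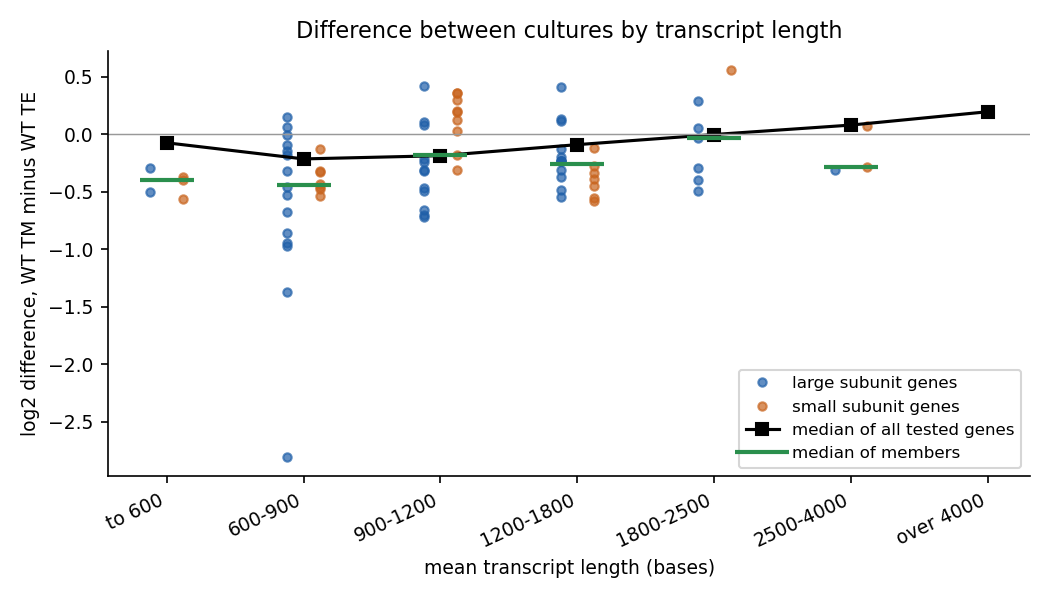
Log2 difference of WT TM minus WT TE (y axis) by class of mean transcript length in bases (x axis). Blue and orange points are large and small subunit genes, green bars their median in a class, and black squares the median of all tested genes in that class. The black line goes from -0.075 up to 600 bases to -0.21 at 600 to 900 bases and rises to 0.20 above 4000 bases, and the members' medians lie below it in every class that holds members but that of 900 to 1200 bases, with 21 of them.

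The proliferation markers Mki67, Top2a, Ccnb1 and Cdk1 moved with the same comparison. All 4 were lower in TM in both genotypes, and their sum was 1038 to 1280 TPM in the TE libraries, 746 to 845 in WT TM and 561 to 763 in TPdh-/- TM. Cell type markers were called as well. In WT TM 3 of 4 B cell and 3 of 4 macrophage and monocyte markers were higher, with 1 of the latter lower. Of 5 NK cell markers 1 was higher and 3 were lower. In TPdh-/- TM 4, 3 and 3 markers of these lists were higher, with none lower. CD8 T cell markers were 2 higher and 2 lower in WT, and 5 higher and 1 lower in TPdh-/-. Of 2 tested dendritic cell markers 2 fell in WT, and 1 rose and 1 fell in TPdh-/-. The part of all these markers in the result was not tested. Nuclear genes for complex I subunits, products that the mitochondrial ribosome helps to complete with mitochondrially encoded partners, were lower for 32 of 37 in WT TM (median -0.50) and 28 of 37 in TPdh-/- TM (median -0.45), with none higher. Of 83 tested cytosolic ribosomal protein genes 30 were lower (36.1%) and 5 higher (6.02%) in WT TM, with a median of -0.13. In TPdh-/- TM the calls were split, with 23 lower (27.7%) and 20 higher (24.1%) and a median of 0.03. Over all tested genes 34.3% were lower and 34.3% higher in WT, and 34.7% and 33% in TPdh-/-.

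Other components of mitochondrial translation were called in both directions, at shares to be read against 34.3% higher and 34.3% lower over all tested genes in WT and 33% and 34.7% in TPdh-/-. Both mitochondrial ribosomal RNAs were lower in TM: mt-Rnr1 of the small subunit fell by 0.96 in WT and 0.69 in TPdh-/-, and mt-Rnr2 of the large subunit by 0.71 and 0.48. The libraries were selected for poly(A) RNA, which limits what the levels of these RNAs stand for. Of the 5 mitoribosomal proteins with other symbols, Aurkaip1 (-0.67), Chchd1 (-0.55) and Gadd45gip1 (-0.25) fell in WT TM and Ptcd3 rose (0.28). In TPdh-/- TM, Dap3 (-0.37) was lower too and 1 of the 5, Ptcd3, was higher. Of 18 translation factors 8 rose and 4 fell in WT, and 6 rose and 6 fell in TPdh-/-, or 66.7% called in each. Guf1, a GTPase of the elongation factor 4 family, rose by 0.66 and 0.68, Mtfmt, which formylates the initiator tRNA, by 0.48 and 0.45, and the initiation factor Mtif2 by 0.39 and 0.32. The elongation factor Tufm fell by 0.33 and 0.45. Among 26 assembly and rRNA modification factors 11 rose and 7 fell in WT, and 7 rose and 10 fell in TPdh-/-, or 69.2% and 65.4% called. Mterf3 (0.84 and 0.96) and the pseudouridine synthase Trub2 (0.75 and 0.55) rose most clearly and the helicase Ddx28 fell (-0.90 and -0.69). Genes for transcription and upkeep of mitochondrial DNA were mostly higher, 7 of 9 in WT and 6 of 9 in TPdh-/-, with none lower. The helicase Twnk rose by 0.80 and 0.40 and the elongation factor Tefm by 0.80 and 0.34. Mrpl43, which shares exon positions with Twnk, fell by 0.24 and 0.20 against it.

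The genotype comparisons asked what loss of Pdha1 does to these genes within a culture. In TM, 2 members were lower in TPdh-/- than in WT and none was higher, where 7.27% of all tested genes were called lower and 11% higher. At an unadjusted p under 0.05 the count was 11 of 78 (14.1%), against 31.5% of all tested genes. The median difference was -0.05 in the large and -0.08 in the small subunit, against 0.00 over all genes, and 55 of 78 members (70.5%) had a negative difference, against 51.3% of all tested genes. Mrpl28 (chromosome 17, 26123500 to 26126613), counterpart of bacterial L28, held 14.3, 13.9, 15.7 and 12.8 CPM in WT TM and 11.3, 10.4, 13.3 and 11.7 CPM in TPdh-/- TM. The groups overlapped by 1 library on each side, and the difference was -0.28 ± 0.09 (adjusted p = 0.0149). Mrpl28 was outside the naming rule for that overlap and is named because it is 1 of only 2 calls. Mrpl54 was the other, with all TPdh-/- TM libraries (5.50 to 6.14 CPM) below all WT TM libraries (6.29 to 7.51 CPM) and a difference of -0.23 ± 0.07 (adjusted p = 0.039). The highest difference, 0.61 ± 0.77 for Mrpl53, did not pass (adjusted p = 0.418).

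Markers of other cell types differed in the same comparison. All 4 macrophage and monocyte markers were higher in TPdh-/- TM, where their sum was 18.9 to 31.1 TPM against 2.92 to 3.49 in WT TM, mostly from Lyz2 (8.87-fold), while Csf1r and Adgre1 averaged 0.53 and 0.33 TPM. All 5 NK cell markers were higher (402 to 515 against 234 to 305 TPM), among them Ncr1 and Tyrobp, each 13.7-fold, at means of 7.95 and 44.2 TPM in TPdh-/- TM. Most of the sum came from Klrd1 (307 against 238 TPM) and Klrk1 (101 against 26.2 TPM). Both stood higher still in WT TE (904 and 196 TPM), so that this sum does not set NK cells apart from these T cells. Of the dendritic cell markers Itgax and Xcr1 were higher and Flt3 and Siglech were at or near 0 (sum 7.13 to 15 against 0.96 to 1.67 TPM), and 4 of 6 CD8 T cell markers were lower. Among the 4 proliferation markers 2 were lower and none higher. Fewer cells of a type and less RNA per cell cannot be told apart in such bulk libraries, and the part of these markers in the genotype difference was not tested.

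The count in TM rested on small margins. Leaving out a library moved it to 0 (library 11 or 14), 1 (library 2, 6, 12, 13 or 16) or 4 (library 10 or 15). DESeq2 called 4 lower, the fit of the 2 TM groups alone none, and the fit without libraries 13 and 14, which had the highest B cell marker sums (37.3 and 22.0 TPM, 6.82 to 19.5 in the other libraries), none. Without libraries 5 and 12 it stayed at 2. The medians of the members rested on few libraries as well. Leaving out 1 library gave -0.077 to -0.019 in the large and -0.102 to -0.023 in the small subunit. Without libraries 13 and 14 they were -0.009 and -0.002, against -0.002 over all tested genes.

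In TE, 3 members were higher and 5 lower in TPdh-/- cells, where 17.3% of all tested genes were called higher and 14.3% lower. Mrps18b (chromosome 17, 35910379 to 35916389), a small subunit protein found only in mitochondria, had the largest difference. WT TE libraries held 29.2, 28.1, 25.5 and 27.2 CPM, and TPdh-/- TE libraries held 43.4, 39.6, 32.7 and 38.8 CPM. The lowest TPdh-/- library lay above the highest WT library, and the difference was 0.49 ± 0.09 (1.40-fold, adjusted p = 0.000504). Mrps18b shares exon positions with the predicted gene Gm16279. Mrps10 (0.36 ± 0.14, adjusted p = 0.0105) and Mrpl19 (0.18 ± 0.08, adjusted p = 0.0403) were also higher, each with overlapping groups. Library 5 was the highest of its group for all 3, with 20.8 CPM of Mrps10 against 13.5 to 15.9 in libraries 6 to 8.

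Mrpl27 was the clearest of the 5 lower members in TE. It held 31.8, 33.1, 30.6 and 34.5 CPM in WT and 24.2, 25.9, 24.3 and 25.2 CPM in TPdh-/-, with no overlap (-0.38 ± 0.04, adjusted p = 0.00137). Eme1, with which Mrpl27 shares exon positions, was lower too (-0.30, adjusted p = 0.0187 in edgeR). The division of reads between the 2 genes was not tested. Mrps12 went from 3.605 to 4.03 CPM in WT to 3.02 to 3.35 CPM in TPdh-/- (-0.29 ± 0.05, adjusted p = 0.0341). Mrpl9, counterpart of bacterial L9, held 85.9 to 92.3 CPM in WT and 66.2 to 82.8 CPM in TPdh-/- (-0.27 ± 0.07, adjusted p = 0.0029). Mrpl58 (-0.25, adjusted p = 0.0128) and Mrps36 (-0.21, adjusted p = 0.0492) were the others, the former with 1 overlapping pair of libraries. Of 27 alternatives the call was kept in 17 for Mrps12 and 15 for Mrps36. In TE the macrophage and monocyte marker sum was 3.53 to 9.20 TPM in TPdh-/- and 2.63 to 5.43 in WT, with 3 of 4 markers called higher and Itgam lower. The NK cell marker sum was 331 to 505 TPM in TPdh-/- and 1014 to 1163 in WT, but these markers were called in both directions. Klrd1 (305 against 904 TPM) and Klrk1 (78.8 against 196 TPM) carried the lower sum, while Ncr1 (49.1-fold, from near 0) and Tyrobp (2.31-fold) were higher. Of the 6 CD8 T cell markers 5 were lower and none higher, with a sum of 2252 to 2534 TPM in TPdh-/- and 3031 to 3309 in WT. Among the 4 proliferation markers 2 were lower and none higher. The part of these markers in the genotype difference in TE was not tested. The number of members called lower was 13 without library 12, 8 without library 11 or 15, 3 without library 1 or 6, and 9 without libraries 5 and 12 (2 higher). With limma on the TPM scale, where the median of all genes stood at 0.09, 17 members were higher and 1 lower, and the members' medians turned from -0.03 to 0.09 in the large and 0.11 in the small subunit. No direction is therefore given for the family as a whole in TE.

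**Figure D5:**
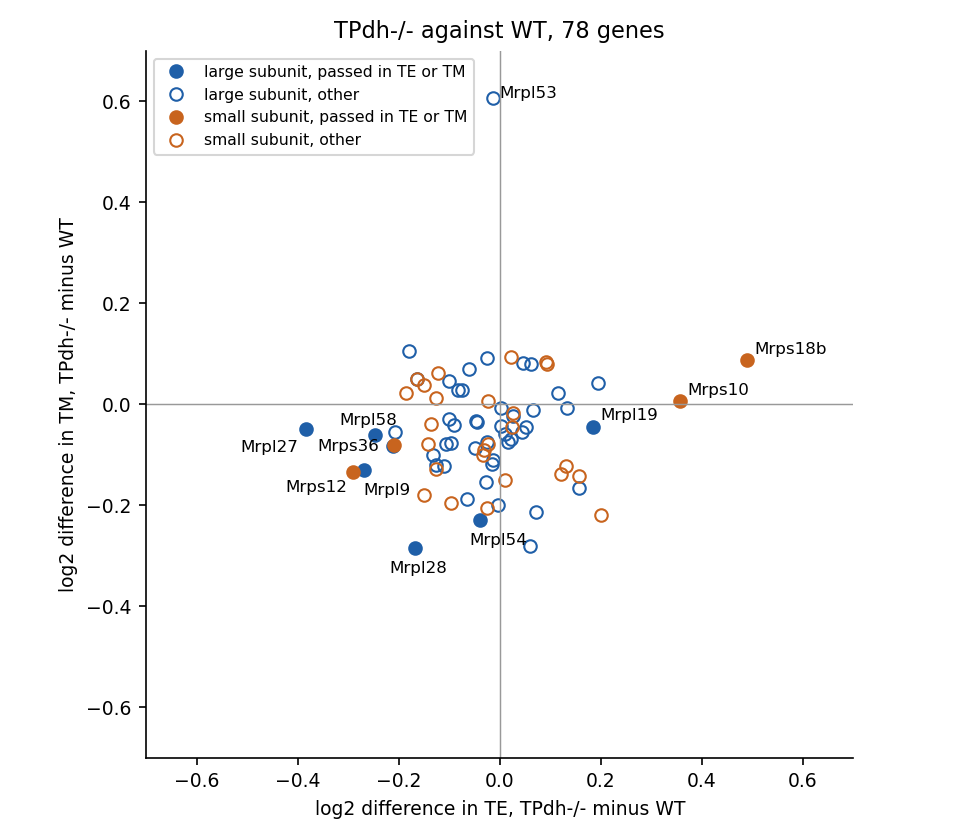
Log2 difference of TPdh-/- minus WT in TE (x axis) and in TM (y axis), 1 point for each of the 78 genes, filled and named where the difference passed the test in TE or in TM. Mrpl53 is named for its place but did not pass. Mrps18b (0.49 in TE) and Mrpl27 (-0.38 in TE) lie farthest out along the x axis among the genes that passed.

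Whether the genotype difference itself changed with culture was tested by the interaction, the difference in TM minus that in TE. It passed for 2 members, Mrps18b (-0.40 ± 0.14, adjusted p = 0.0395) and Mrps2 (-0.30 ± 0.08, adjusted p = 0.0317), both lower, where 7.51% of all tested genes were called lower and 8.05% higher. In TM the libraries of Mrps18b held 32.9, 33.0, 31.9 and 29.0 CPM in WT and 28.1, 38.1, 34.5 and 34.1 CPM in TPdh-/-, which overlap, unlike those in TE. Mrps2 held 21.4 to 25.9 CPM in TPdh-/- TE and 20.4 to 21.0 CPM in WT TE, without overlap, at 0.16 ± 0.06 and an adjusted p of 0.0711. In TM it held 26.3 to 29.8 CPM in TPdh-/- and 28.6 to 33.0 CPM in WT, at -0.14 ± 0.06 and an adjusted p of 0.134. At an unadjusted p under 0.05 the interaction counted 12 members (15.4%), against 29.5% of all tested genes, and DESeq2 called 3 lower and 1 higher. None was called lower without library 1, 2, 3, 4, 5, 6, 9, 13, 15 or 16, 1 without library 8, 11 or 12 and without libraries 5 and 12, and 5 without library 7. On the TPM scale, where the median of all genes stood at -0.12, 12 members were called lower.

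Of the companion genes, Dap3, a GTP-binding protein of the small subunit, was also called in the interaction. It was higher in TPdh-/- TE (0.39 ± 0.05, adjusted p = 0.000222) and differed by 0.10 in TM, with an interaction of -0.29 ± 0.09 (adjusted p = 0.0403). Twnk (0.32 in TE, interaction -0.39), Tefm (0.54 and -0.45), the ribosome recycling factor Mrrf (0.31 and -0.31) and the rRNA methyltransferase Mrm3 (0.40 and -0.49) were also higher in TPdh-/- TE with a lower interaction. Of 26 alternatives the interaction call was kept in 26 for Twnk, 17 for Mrrf, 13 for Tefm, 12 for Dap3 and 8 for Mrm3 (adjusted p up to 0.163). The methyltransferase gene Mettl15 was lower in TPdh-/- TE (-0.30) with a higher interaction (0.41). The assembly GTPase Mtg1 and the small subunit protein Ptcd3 were higher in TPdh-/- TE by 0.30 and 0.17, calls kept in 27 and 7 of 27 alternatives (adjusted p up to 0.153 for Ptcd3). The assembly factor Malsu1 and the ribosomal RNA mt-Rnr2 both fell by 0.27. In TM the only companion call was Tufm, which fell by 0.16 (adjusted p = 0.0224). Complex I subunits had 12 of 37 lower in TPdh-/- TE (32.4%) and 2 lower in TPdh-/- TM (5.41%). Cytosolic ribosomal proteins had 26 of 83 (31.3%) and 2 (2.41%) lower, and neither list had a gene called higher in either culture. Over all tested genes 14.3% were called lower in TE and 7.27% in TM.

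Members that share exon positions with another gene numbered 33, of which 23 share them with a protein-coding gene, and RSEM divides reads there by its model. Among the 45 others 28 were lower and 7 higher in WT TM, and 29 lower and 5 higher in TPdh-/- TM, or 62.2% and 64.4% lower. Mrpl46 and Mrps11, which overlap head to head on chromosome 7, fell by 0.32 and 0.31 in WT. The overlap pair Mrpl36 and Ndufs6 differed: Ndufs6, a complex I subunit, fell by 0.66 in WT TM while Mrpl36 stood at 0.10. Tcp1, a chaperonin subunit that shares positions with Mrpl18, fell by 0.50 while Mrpl18 fell by 0.70. Of 5 pseudogenes left out, Mrpl23-ps1 reached 72.0 counts in a library and the others at most 3.08, and reads that a copy shares with its parent gene are uncertain.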

How the data were processed

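Poly(A) RNA of 16 libraries was measured, and 4 libraries formed each group. Per the labels, the library kit was not strand-specific. The submitters' processing notes name STAR 2.7.6a, RSEM 1.3.3, DESeq2 (no version) and the build mm10, which is GRCm38. The annotation release is not given in the sources used here. Deposited values were RSEM expected counts per gene, as estimated by the authors, TPM, which the authors scaled for transcript length and library total, and a mean transcript length. FPKM was not used.

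Names and positions were taken from GENCODE M21, whose identifiers matched 99.5% of those deposited. Expected counts were rounded, filterByExpr (minimum count 10, minimum total 15) left 15277 genes, and edgeR 4.0.16 under R 4.3.3 fitted a quasi-likelihood model with TMM factors and 1 mean per group to all 16 libraries. Adjusted p values are Benjamini-Hochberg over all tested genes, called below 0.05. Log2 differences come from the fit. SE is the spread of log2 CPM (prior count 2) between libraries. The fit was tested on simulated data. Totals of 53007257 to 73507566 counts set the precision. Alternatives used DESeq2 1.42.0, limma 3.58.1 on log2 CPM and on log2(TPM + 1), other scalings, filters, samples and members. A fit on TPM understates the change of low genes.

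The members and lists were chosen with earlier results of these data known. Genes were named by rule: in each comparison and subunit up to 5 called members per direction with the largest log2 difference and no overlap of libraries, the 3 highest and 3 lowest by TPM in each subunit, a fixed set (Mrps12, Mrpl10, Mrpl11, Mrpl12, Mrps36, the Mrps18 genes, Mrps30, Mrpl58), and up to 3 called genes of each companion list and comparison by smallest adjusted p. Mrpl28, Mrpl43, Mrpl46, Mrps11, Mrpl36, Mrpl18, Mrps10 and Mrpl19 in TE, the genes whose promoter is printed, further companion genes and overlapping neighbours were named after their values were seen. Promoter windows came from RefSeq (GRCm38.p6). Python 3.11.15 with pandas 2.3.3, numpy 2.4.6 and matplotlib 3.10.9 made tables and figures.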

Additional observations from a re-analysis of the deposited data

Results flagged for a closer look

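In a group of 4 a library was examined when its gap to the nearest of the others exceeded Dixon's 95% critical value as a share of the group's range, and chance gives about 1 in 20 groups. Of 164 groups 7 met this. In WT TE these were Mrps18a in library 4 (15.4 CPM, next 17.6), Mrps30 in library 1 (34.2 CPM, next 32.0) and Mrps6 in library 2 (7.68 CPM, next 7.40). In TM, Mrps21 was low in WT library 12 (34.6 CPM, next 46.1) and in TPdh-/- library 13 (38.4 CPM, next 46.4), and Mrps27 was low in TPdh-/- library 13 (15.2 CPM, next 16.7). The summed TPM of the small subunit was high in WT TM library 11 (1542).

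The genotype difference in TM minus that in TE passed the interaction test for Mrps18b (-0.40), Mrps2 (-0.30), Dap3 (-0.29), Mrrf (-0.31), Mrm3 (-0.49), Mettl15 (0.41), Tefm (-0.45) and Twnk (-0.39).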

How the results depend on the processing

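Named genes kept their call under every alternative for 29 of 35 in WT TM against TE, 30 of 37 in TPdh-/-, 7 of 15 by genotype in TE, 0 of 2 by genotype in TM and 1 of 8 in the interaction. Mrps17 turned to -0.086 in TPdh-/- TM on log2 TPM (adjusted p = 0.263 in limma). For members lower by genotype in TM (2), DESeq2 gave 4, upper quartile scaling, no count filter and removal of the length trend 1 each, and the fit of those groups alone and that without libraries 13 and 14 gave 0. For genotype in TE (3 higher, 5 lower), log2 TPM gave 17 and 1, upper quartile scaling 5 and 3, and members free of overlap 1 and 2, while 9 were lower in those groups alone and without libraries 5 and 12 and 3 after length removal. In WT TM, 16 were higher without libraries 5 and 12 and after length removal, 31 lower on log2 TPM and 28 lower among members free of overlap. In TPdh-/- TM these were 11 higher in both cases and 29 lower free of overlap. In the interaction (0 higher, 2 lower), 1 was higher with DESeq2, relative log expression, a minimum count of 100 and without libraries 13 and 14. There 12 were lower on log2 TPM and 1 with no filter, without libraries 5 and 12, without 13 and 14, and free of overlap. The causes were not tested, except that the list free of overlap holds fewer genes. Leaving out a library gave 0 to 4 lower by genotype in TM with 0 higher, 2 to 5 higher and 3 to 13 lower in TE, 6 to 13 higher and 48 to 53 lower in WT TM, 5 to 9 higher and 46 to 53 lower in TPdh-/- TM, and 0 to 1 higher and 0 to 5 lower in the interaction. Fits without libraries 13 and 14 and with the length trend removed were chosen after seeing the data. No paired analysis was possible because the labels give no animal, so that it is unknown whether TE and TM cultures share animals. Mrpl53 is limited by depth, at 1.22 CPM or less in TM.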
